A study of Fragaria x ananassa with 9 samples.

Results

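Glutathione transferases and MATE transporters were described across petal coloration in a pink-flowered strawberry. The members are the unigenes whose best SwissProt description named a glutathione S-transferase (GST), a protein DETOXIFICATION (DTX), a MATE efflux protein or TRANSPARENT TESTA 12. A unigene was also required to reach 1 TPM (an abundance scaled for transcript length and library total) in at least 3 libraries. Of 50285 unigenes in the assembly, 100 matched by description and 95 passed, namely 38 of 39 GST and 57 of 61 MATE unigenes. The 9 libraries came from petals of the cultivar Sijihong (Fragaria x ananassa) at 3 stages with 3 biological replicates each. PF_L was the young bud with closed sepals and colourless petals, PF_Z the beginning of coloration, and PF_D the big bud with closed but fully coloured petals. All libraries share 1 cultivar, and the labels give no treatment or transgene and no plant, collection day or library batch. Member names were taken over from the closest SwissProt entry, usually of Arabidopsis, and stand for a relative rather than a strawberry protein of known function. The cultivar is a polyploid derived from a wide cross, so members can be copies or fragments of 1 gene, and 46 of the 95 shared an assembly cluster with another member.

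Anthocyanins are made at the cytosolic face of the endoplasmic reticulum and stored in the vacuole. Glutathione transferases join glutathione to reactive or foreign compounds, and some members of the phi and tau classes, such as Arabidopsis GSTF12 (TT19), petunia AN9 and maize BZ2, are required for anthocyanins to reach the vacuole, where they are thought to act as carriers that bind the pigment. MATE proteins are membrane transporters that exchange an organic solute for protons or sodium ions. Arabidopsis DTX41 (TT12) brings flavonoids into the vacuole of seed coat cells, and DTX35 has been linked to flavonoids of the flower. Transporters of ABC class C are a further route into the vacuole, and the proton pumps of its membrane supply the gradient that MATE antiporters use.

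Tissue checks preceded the comparisons. Both unigenes matching petal and stamen identity genes of the MADS family were abundant, with summed levels of 1560 to 2009 TPM over the libraries, and those matching AGAMOUS, which specifies stamens and carpels, summed to 1.70 to 13.1 TPM. Unigenes of chlorophyll a-b binding proteins, 28 in number and taken as the mark of green tissue, summed to 4668 to 7239 TPM in PF_L, 1558 to 5678 TPM in PF_Z and 478 to 1838 TPM in PF_D. In bulk petals, a change in the share of a cell type and a change of RNA per cell cannot be told apart.

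A few unigenes together held a growing share of each family as the petals coloured. The 38 GST members together held 1105 ± 25.7 TPM in PF_L, 1729.8 ± 185 TPM in PF_Z and 2403 ± 280.2 TPM in PF_D (mean ± SD, n = 3). The phi class alone went from 150.0 ± 12.2 to 850.2 ± 251 and 1804 ± 165 TPM. Its share lay mainly in DN20318_c0_g1 and GSTF11, which made up 7.28% ± 0.463 of all GST abundance in PF_L, 45.3% ± 9.56 at PF_Z and 71.7% ± 2.11 at PF_D. The other 36 GST members together held 1025 ± 18.7, 934 ± 64.3 and 685 ± 126 TPM at the 3 stages. The 57 MATE members held 655 ± 29.2, 881 ± 222 and 990.1 ± 168 TPM. Together, DTX27 DN27244_c1_g1 and DTX55 went from 24.2% ± 1.97 to 48.2% ± 4.47 and 61.8% ± 3.18 of that sum. The share of DTX27 DN27244_c1_g1 alone was 24.2%, 41.5% and 28.9%, and that of DTX55 0.0581%, 6.68% and 32.9%. The other 55 MATE members held 496 ± 9.30, 452 ± 95.1 and 380 ± 80.9 TPM. Each pair had the highest means of its family over all libraries, so its growing share and the smaller rest follow in part from the choice. In PF_L another member, DHAR2, led the GST members at 261 ± 5.19 TPM. The sums are descriptions, since 3 libraries against 3 cannot give an exact two-sided p below 0.1.

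**Figure D1:**
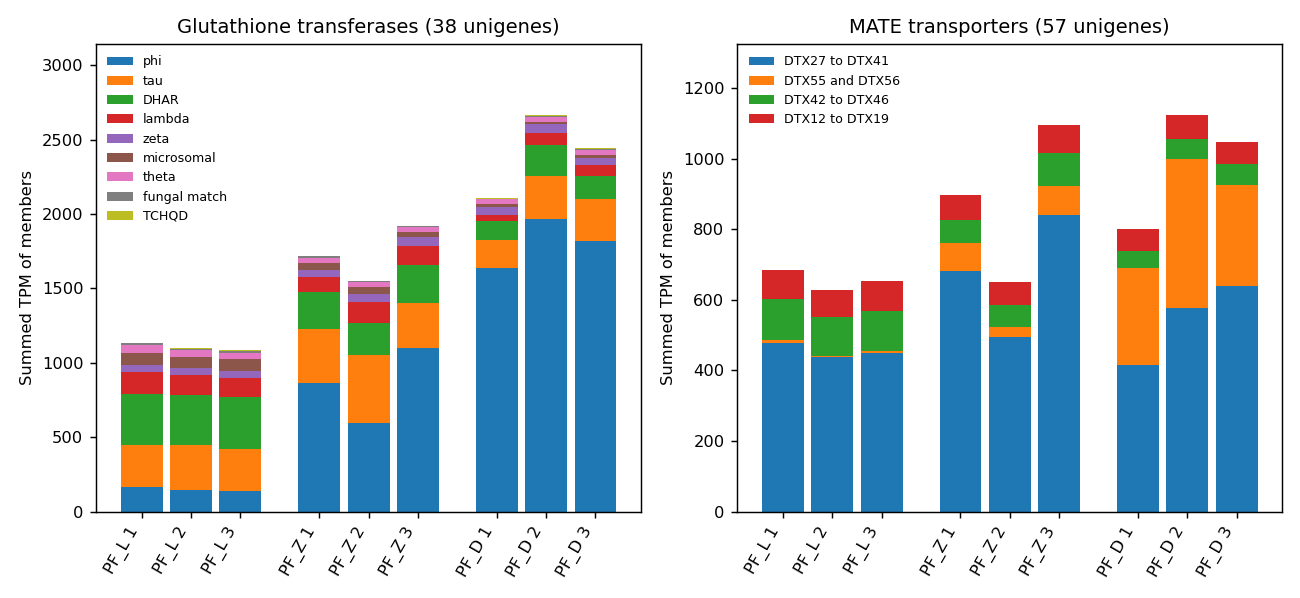
Stacked bars give the summed TPM of the members by class in each of the 9 libraries, for 38 glutathione transferases on the left and 57 MATE transporters on the right, with 3 libraries per stage. The phi class grows from about 150.0 TPM on average in PF_L to 1804 TPM in PF_D, and DTX55 and DTX56 from 5.12 to 328 TPM.

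Single members were compared between stages on the log2(TPM + 1) scale with limma, and all log2 differences below are on that scale, the later stage minus the earlier, with their standard error. A member was called when it differed by at least 1 in log2 and the Benjamini-Hochberg adjusted p over 47924 tested unigenes was under 0.05, and "rose" and "fell" are used only for called members. Of the GST members, 8 of 38 were called between PF_Z and PF_L (5 rose, 3 fell), where 6.84% of all tested unigenes were called (2.15% rose, 4.70% fell). Between PF_D and PF_Z, 15 were called (5 rose, 10 fell) against 18.0% of all (8.89% rose, 9.07% fell), and between PF_D and PF_L, 20 were called (6 rose, 14 fell) against 25.1% of all (9.38% rose, 15.7% fell). Of the MATE members, 11 of 57 (3 rose, 8 fell), 14 (3 rose, 11 fell) and 25 (8 rose, 17 fell) were called in the same order of comparisons. As a share of the members tested, this was 21.1%, 39.5% and 52.6% for GST and 19.3%, 24.6% and 43.9% for MATE. Median log2 differences were -0.20, -0.17 and -0.45 for GST and -0.22, -0.15 and -0.18 for MATE, while those of all tested unigenes were -0.21, 0.08 and -0.12. The 8 falls of MATE members between PF_Z and PF_L depended on scaling, since 8 rose and 4 fell after median-ratio scaling and 8 rose and 6 fell after quantile normalization. The number called between PF_Z and PF_L also rested on single libraries. For GST it was 5 without PF_L replicate 1, 4 without PF_L replicate 3, 4 without PF_Z replicate 1 and 5 without PF_Z replicate 2. For MATE it was 7 without PF_L replicate 2, 5 without PF_L replicate 3 and 6 without PF_Z replicate 1.

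GSTF11 (DN12743_c0_g1), whose Arabidopsis namesake is a close relative of the anthocyanin carrier GSTF12, had the largest rise of the GST members. It was at 2.74, 1.14 and 2.53 TPM in PF_L, 206, 141 and 273 TPM in PF_Z and 626, 905 and 718 TPM in PF_D. No library of one stage reached the range of the next, and the mean was 351-fold higher in PF_D than in PF_L. GSTF11 rose by 6.04 ± 0.28 from PF_L to PF_Z (adjusted p = 8.62e-06) and by another 1.89 ± 0.28 to PF_D (adjusted p = 0.000967), 7.93 ± 0.28 in all (adjusted p = 1.15e-07). Of the 100 description matches, none was to GSTF12, AN9 or BZ2.

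The most abundant GST was DN20318_c0_g1, a phi-class member whose best match is a GST of Hyoscyamus muticus, a plant of the nightshade family. It stood at 85.4, 77.8 and 71.8 TPM in PF_L, 599, 404 and 765 TPM in PF_Z and 935, 965 and 1006 TPM in PF_D. Unlike GSTF11 it was already well above 50 TPM in the colourless bud. Most of its log2 change came with the onset of colour, as it did for GSTF11. It rose by 2.85 ± 0.21 from PF_L to PF_Z (adjusted p = 0.00011) and by 3.61 ± 0.21 from PF_L to PF_D (adjusted p = 1.9e-06), a 12.4-fold difference of means. The step from PF_Z to PF_D was 0.76 ± 0.21 (adjusted p = 0.0243), below the limit of 1.

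GSTF13 appeared as a pair of phi members. DN12502_c0_g2 was at 22.5, 25.2 and 17.7 TPM in PF_L, 18.2, 9.31 and 12.1 TPM in PF_Z and 39.9, 60.8 and 57.1 TPM in PF_D. Its rise came late, by 1.94 ± 0.25 from PF_Z to PF_D (adjusted p = 0.000449) and 1.23 ± 0.25 over the whole interval (adjusted p = 0.00375). The second, DN8003_c0_g1, stayed below 4 TPM in every library and rose by 1.14 ± 0.30 from PF_L to PF_Z (adjusted p = 0.0396) and 1.12 ± 0.30 from PF_L to PF_D (adjusted p = 0.0147). Its early call did not hold when any of PF_L replicates 1 and 3, the 3 PF_Z libraries and PF_D replicate 3 was left out (adjusted p of 0.058 to 0.131), nor its later call without PF_L replicate 3 or PF_D replicate 3 (0.0586 and 0.0604). Across the phi class, 4 of 9 members rose and 2 fell between PF_D and PF_L, against 9.38% and 15.7% of all tested unigenes. The 2 that fell, a GSTF2 match (DN288_c0_g1) and its cluster neighbour DN288_c0_g2, were fragments of 232 and 364 bp at 1.01 to 3.09 TPM in the young bud, and every PF_D library listed them at 0. Both passed the abundance limit only with their PF_L libraries, so their calls are no evidence of a difference. GSTF8 and both GSTF9 matches, the remaining members, were not called in any comparison.

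**Figure D2:**
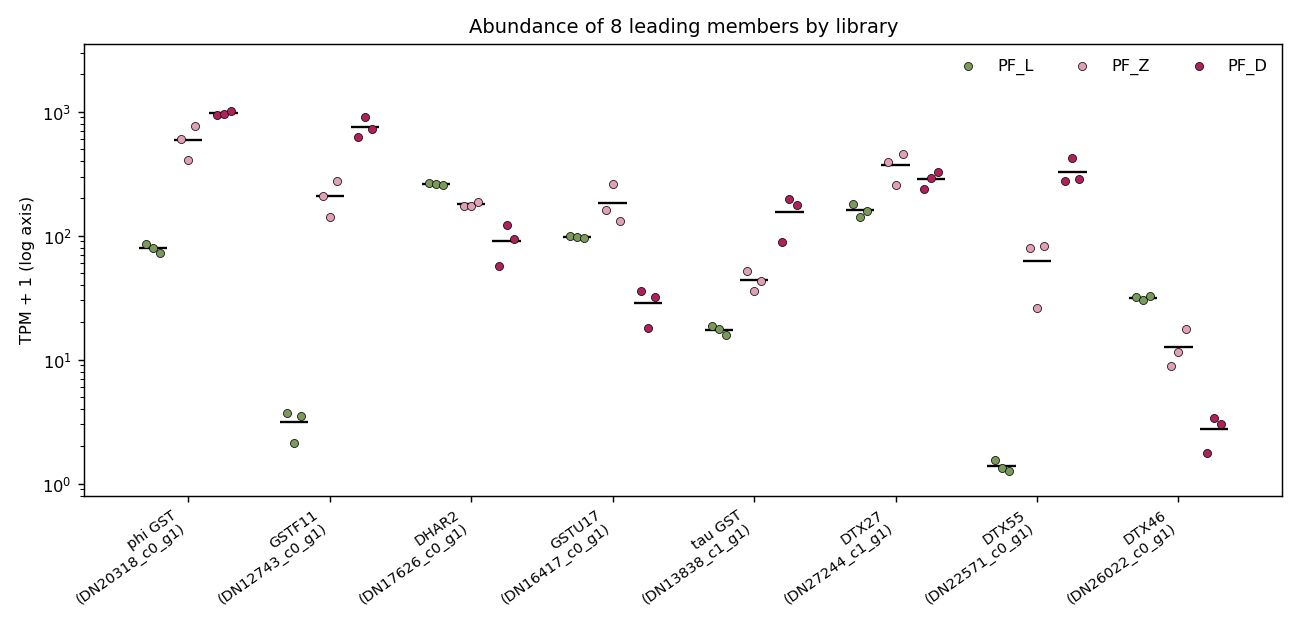
Points are single libraries of 8 abundant or strongly changing members, 5 GST and 3 MATE, coloured by stage, and bars are the mean of 3 libraries, as TPM + 1 on a log axis. GSTF11 and DTX55 lie below 3 TPM in every PF_L library and above 274 TPM in every PF_D library, whereas DHAR2 and DTX46 go the other way.

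The tau class, which in plants includes many stress-induced detoxifying GSTs and the maize anthocyanin gene BZ2, was the largest with 15 members. Between PF_D and PF_L, where 15.7% of all tested unigenes fell and 9.38% rose, 6 of them fell, 8 were not called and 1 rose. That one, DN13838_c1_g1, a probable GST by its tobacco match, was at 17.6, 16.7 and 14.8 TPM in PF_L, 50.6, 35.1 and 42.4 TPM in PF_Z and 87.9, 195 and 176 TPM in PF_D. The 3 stages did not overlap, and it rose in both steps, by 1.32 ± 0.27 (adjusted p = 0.0161) and 1.75 ± 0.27 (adjusted p = 0.00131). The first of these was not called without PF_L replicate 2, PF_L replicate 3 or PF_Z replicate 1 (adjusted p of 0.0513 to 0.0631), while the rise of 3.07 ± 0.27 from PF_L to PF_D was (adjusted p = 2.29e-05).

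GSTU17, which in Arabidopsis takes part in light and drought responses, was the most abundant tau member and had its highest values in PF_Z. It was at 97.9, 95.7 and 95.3 TPM in PF_L, 161, 259 and 130 TPM in PF_Z and 35.04, 17.1 and 31.1 TPM in PF_D. It fell by 2.68 ± 0.29 from PF_Z to PF_D (adjusted p = 0.000174), and the increase before that, 0.86 ± 0.29 with an adjusted p of 0.0913, did not pass. Among other abundant tau members, DN15246_c0_g3 was at 67.1 to 79.8 TPM in PF_L, 56.7 to 70.3 TPM in PF_Z and 12.9 to 17.6 TPM in PF_D, a fall of 2.06 ± 0.16 on the second step (adjusted p = 2.54e-05). DN16582_c0_g1 went the same way, falling by 1.13 ± 0.16 (adjusted p = 0.000701). These 3 members fell only once colour had begun, with the PF_Z libraries above those of PF_L for GSTU17 and overlapping them for the others.

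Less abundant tau members also fell. The deepest fall was that of DN19456_c2_g3, at 2.98, 11.4 and 14.2 TPM in PF_L, 4.86, 7.46 and 4.36 TPM in PF_Z and 0.15, 0 and 0.07 TPM in PF_D. It fell by 2.58 ± 0.45 from PF_Z to PF_D (adjusted p = 0.00233). A GSTU9 match (DN17497_c1_g3) changed earlier, from 5.95 to 8.55 TPM in PF_L to 0.69 to 1.32 TPM in PF_Z. This was a fall of 2.02 ± 0.25 (adjusted p = 0.00146), but the member passed the abundance limit only with its PF_L libraries. Its calls against PF_L, which the counts of tau falls include, are thus no evidence of a difference. Its cluster neighbour GSTU10 (DN17497_c1_g1) was at 11.7 to 14.8, 8.13 to 13.7 and 23.1 to 25.7 TPM and rose by 1.02 ± 0.20 from PF_Z to PF_D (adjusted p = 0.00477). That call was lost without PF_Z replicate 2 or PF_D replicate 2 (0.80 to 0.97 in log2), at a pseudocount of 5 TPM (0.82), under median-ratio scaling (0.923) and under quantile normalization (0.925). DN13052_c1_g3, at 2.34 to 3.09 TPM in PF_L and at most 0.63 TPM later, passed the abundance limit through PF_L alone, so its calls, which the counts of tau falls include, are no evidence of a difference. GSTU6, a fragment of 232 bp, fell by 1.69 ± 0.53 from PF_Z to PF_D (adjusted p = 0.0371). This fall was lost without any of 6 libraries, PF_L replicate 3, the 3 PF_Z libraries, PF_D replicate 2 and PF_D replicate 3 (0.0513 to 0.119). GSTU6 passed the abundance limit only with its PF_Z libraries, so the fall is no evidence of a difference.

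Dehydroascorbate reductases (DHAR) are GST relatives that regenerate ascorbate at the expense of glutathione, and their 3 members moved in opposite directions. DHAR2 (DN17626_c0_g1) was the most abundant GST of the young bud, at 267, 259 and 257 TPM in PF_L, 174, 171 and 187 TPM in PF_Z and 55.4, 121 and 93.1 TPM in PF_D. It fell by 1.04 ± 0.24 from PF_Z to PF_D (adjusted p = 0.00916) and 1.60 ± 0.24 from PF_L to PF_D (adjusted p = 0.000553). DHAR3, matched to the chloroplast form, went from a range of 67.4 to 88.8 TPM in PF_L to one of 21.6 to 50.1 TPM in PF_D and fell by 1.14 ± 0.29 (adjusted p = 0.0121). DHAR1 (DN26841_c2_g1), matched to the mitochondrial form, was at 5.72, 5.18 and 5.26 TPM in PF_L, 9.27, 6.54 and 9.60 TPM in PF_Z and 47.7, 39.96 and 23.3 TPM in PF_D. It rose by 1.96 ± 0.25 from PF_Z to PF_D (adjusted p = 0.000461) and 2.51 ± 0.25 from PF_L to PF_D (adjusted p = 5.07e-05). Without PF_D replicate 1 the second-step difference of DHAR2 was -0.74 and that of DHAR3 from PF_L to PF_D was -0.83, both short of the limit. DHAR abundance as a whole went from 343 ± 9.91 to 237 ± 20.3 and 163 ± 44.0 TPM.

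Lambda GSTs, which act as glutathione-dependent reductases, also split. One GSTL2 match, DN20538_c0_g1, was at 96.3, 93.3 and 83.3 TPM in PF_L, 43.2, 56.9 and 60.6 TPM in PF_Z and 12.2, 9.41 and 12.4 TPM in PF_D and fell by 2.90 ± 0.17 between PF_L and PF_D (adjusted p = 1.72e-06). Another, DN13418_c0_g1, fell in both steps, by 1.67 ± 0.31 (adjusted p = 0.00981) and 1.42 ± 0.31 (adjusted p = 0.00754), from 13.3 to 14.4 TPM in PF_L to 0.59 to 0.97 TPM in PF_D. GSTL3 (DN21594_c1_g1) instead rose by 1.13 ± 0.30 from PF_L to PF_Z (adjusted p = 0.0433), with 27.5 to 31.5 TPM against 56 to 82.4 TPM. That rise missed the limits when any of the 6 libraries compared or PF_D replicate 3 was left out (adjusted p of 0.056 to 0.137).

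The remaining GST classes held 8 members. The microsomal member, a membrane-bound enzyme unrelated in sequence to the soluble classes and matched to mouse Mgst3, was at 70.8 to 79.8 TPM in PF_L, 33.8 to 49.1 TPM in PF_Z and 16.3 to 19.5 TPM in PF_D. It fell by 2.02 ± 0.16 between PF_L and PF_D (adjusted p = 1.39e-05). The 2 zeta members, matches of maleylacetoacetate isomerase of tyrosine breakdown, passed no comparison. The more abundant of them stayed at 35.3 to 39.6, 37.7 to 41.7 and 31.5 to 45.9 TPM, a log2 difference of 0.06 ± 0.15 between PF_D and PF_L. None of the 3 theta members was called, the largest being GSTT1, whose level was 42.2 ± 3.53 TPM in the young bud and 27.8 ± 1.79 TPM in the big bud (log2 difference -0.58 ± 0.13, adjusted p = 0.00638). The single TCHQD member stayed at 2.60 to 6.03 TPM and was not called. One member matched tpcF, a fungal GST-like protein, and fell by 1.22 ± 0.19 between PF_L and PF_D (adjusted p = 0.000867) from 11.9 ± 1.23 to 4.56 ± 0.581 TPM, although its best match in the Nr protein database was an uncharacterized protein of woodland strawberry.

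**Figure D3:**
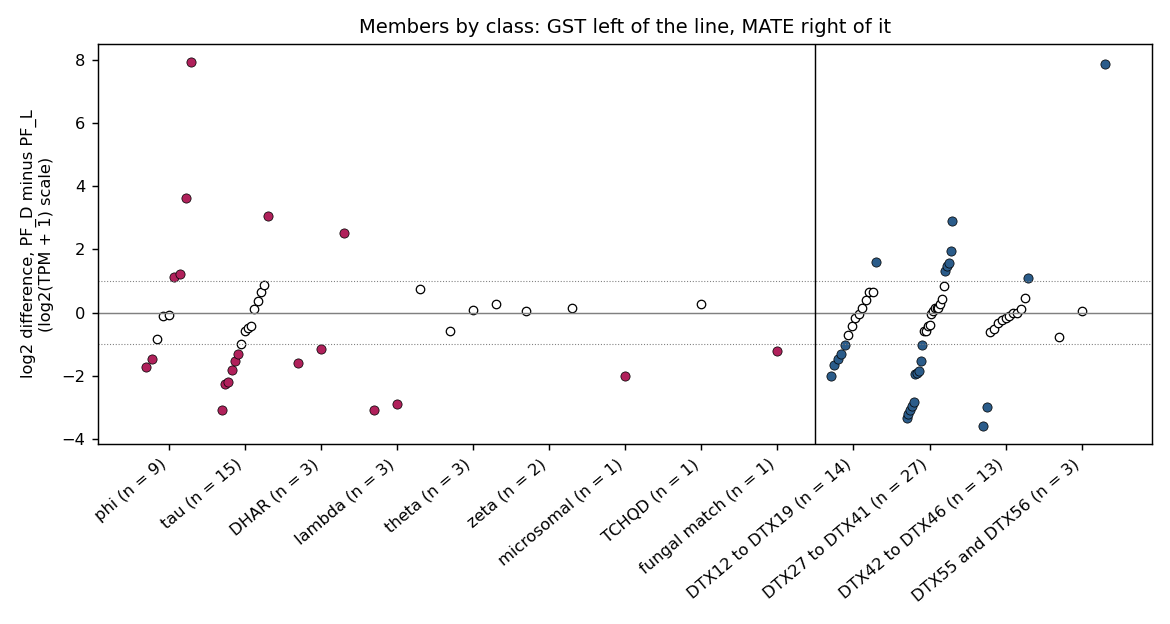
Each point is 1 member, placed by class along the x axis and by its log2 difference between PF_D and PF_L on the y axis, filled where called and open where not, with dotted lines at -1 and 1. The phi class and the pair DTX55 and DTX56 hold the members near 8, while tau and DTX27 to DTX41 spread on both sides of 0.

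Of the MATE members, DTX55 (DN22571_c0_g1) had by far the largest difference. Its level was 0.56, 0.33 and 0.26 TPM in PF_L, 79.1, 25.0 and 80.9 TPM in PF_Z and 275, 419 and 284 TPM in PF_D. It rose in both steps, by 5.33 ± 0.39 (adjusted p = 0.000101) and 2.53 ± 0.39 (adjusted p = 0.0012). The PF_Z libraries spread more than 3-fold around this rise, with replicate 2 the lowest, and replicate 2 was also the lowest PF_Z library for GSTF11 and DN20318_c0_g1. The 2 DTX56 matches of the same group, fragments of 223 and 274 bp, were at 0 to 5.81 TPM and not called.

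The most abundant MATE over all libraries was a DTX27 match, DN27244_c1_g1, at 180.0, 140.5 and 156 TPM in PF_L, 388, 257 and 458 TPM in PF_Z and 238, 290 and 325 TPM in PF_D. It rose by 1.17 ± 0.22 from PF_L to PF_Z (adjusted p = 0.0109), with no library overlap, and the difference after that was -0.34 ± 0.22. Without PF_Z replicate 3 the rise was just below the limit (0.995 in log2, adjusted p = 0.0184). Another DTX27 match, DN20960_c0_g1, changed later, from 2.90 to 4.12 TPM in PF_Z to 6.90, 26 and 21.3 TPM in PF_D, a rise of 1.95 ± 0.39 (adjusted p = 0.00513). One more, DN10669_c0_g1, at 34.5 to 116 TPM in all libraries, was not called, nor were the other DTX27 members.

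DTX41 is the SwissProt name of TRANSPARENT TESTA 12, and most of its members fell. Of 7 matches by description, 5 passed the abundance limit. Between PF_D and PF_L 4 of the 5 fell and 1 rose, where 15.7% of all tested unigenes fell and 9.38% rose. These counts include DN17013_c0_g3 and DN21309_c0_g4, whose calls are no evidence of a difference for a reason given below. DN20172_c0_g3 was at 12.9, 17.8 and 14.9 TPM in PF_L, 4.32, 5.90 and 7.72 TPM in PF_Z and 0.42, 2 and 1.07 TPM in PF_D, falling by 2.96 ± 0.30 over the interval (adjusted p = 5.22e-05). Its fall of 1.23 ± 0.30 in the first step (adjusted p = 0.0309) was lost without any of the 3 PF_L libraries, PF_Z replicate 1 or PF_Z replicate 2 (adjusted p of 0.0694 to 0.107), under median-ratio scaling (0.0519) and at a pseudocount of 0.1 or 5 TPM. At 5 TPM its second step was not called either. DN17013_c0_g1 was at 8.97 to 11.04 TPM in PF_L, 6.23 to 12.9 TPM in PF_Z and 1.16 to 4.36 TPM in PF_D and fell by 1.51 ± 0.35 on the second step (adjusted p = 0.0107). The short DN17013_c0_g3, never above 2.11 TPM, fell by 1.03 ± 0.36 from PF_L to PF_D (adjusted p = 0.0497), a call that held in only 3 of 17 alternatives. It was lost when any library but PF_L replicate 3 was left out (adjusted p of 0.0505 to 0.152). It was also lost under both scalings, with a replicate block, in a fit of the 6 libraries compared, with no filter and at a pseudocount of 5 TPM. DN17013_c0_g3 passed the abundance limit only with its PF_L libraries, so its call is no evidence of a difference.

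The remaining pair of DTX41 matches came from 1 assembly cluster and went opposite ways. DN21309_c0_g1 was at 8.95, 10.9 and 10.3 TPM in PF_L, 2.80, 2.81 and 3.95 TPM in PF_Z and 0.14, 0.35 and 0.43 TPM in PF_D. It fell in both steps, by 1.41 ± 0.23 (adjusted p = 0.00535) and 1.68 ± 0.23 (adjusted p = 0.000619), although at a pseudocount of 5 TPM the steps were -0.88 and -0.62 and only the whole interval was called. DN21309_c0_g4 was at 0.43, 0.11 and 0.44 TPM in PF_L, 0.37, 0.59 and 1.20 TPM in PF_Z and 6.95, 11.03 and 9.02 TPM in PF_D. It rose by 2.55 ± 0.29 from PF_Z to PF_D (adjusted p = 0.000236) and 2.90 ± 0.29 from PF_L to PF_D (adjusted p = 4.87e-05), and so was the single DTX41 match that was higher in the coloured bud. Outside PF_D only PF_Z replicate 3 reached 1 TPM, so this member passed the abundance limit through PF_D. Its calls are thus no evidence of a difference. The summits of all 5 DTX41 matches lay below 18 TPM, against 419 TPM for DTX55. The Nr database, by contrast, gave the name TRANSPARENT TESTA 12 to all 27 members of the group DTX27 to DTX41. Of these, 5 rose and 10 fell between PF_D and PF_L, against 9.38% and 15.7% of all tested unigenes. The counts include the rise of DN21309_c0_g4 and the falls of DN17013_c0_g3, both DTX31 matches and DTX29 DN18323_c0_g2. Each of them passed the abundance limit only with the libraries of the stage where it was high. Those calls are no evidence of a difference. Only the 5 DTX41 matches carried the GO term for the vacuolar membrane.

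DTX35, with a role in flower flavonoids and, like DTX33, in chloride uptake into the vacuole in Arabidopsis, had 4 members and no common direction. The most abundant, DN19362_c0_g1, was at 39.1, 33.2 and 34.9 TPM in PF_L, 71.7, 59.2 and 84.0 TPM in PF_Z and 27.3, 42.0 and 44.4 TPM in PF_D, and both steps (0.97 ± 0.20 and -0.92 ± 0.20) were just short of the limit of 1. DN25498_c1_g1 was at 47.3, 49.4 and 47.6 TPM in PF_L, 34.0, 22.1 and 33.6 TPM in PF_Z and 13.9, 6.45 and 17.8 TPM in PF_D and fell by 1.94 ± 0.30 over the interval (adjusted p = 0.000814). DN12144_c0_g1 rose by 1.94 ± 0.20 (adjusted p = 4.96e-05), from 5.06 to 9.21 TPM in PF_L to 27.1 to 29.5 TPM in PF_D, and DN25498_c0_g1, a fragment of 512 bp, by 1.46 ± 0.23 (adjusted p = 0.000896). The fall of DN25498_c1_g1 between PF_Z and PF_D (1.25 ± 0.30, adjusted p = 0.0133) was -0.86 without PF_D replicate 2, and the early rise of DN12144_c0_g1 (1.06 ± 0.20, adjusted p = 0.00999) was 0.90 without PF_L replicate 3. DTX33 (DN23655_c0_g4) went from 15.5, 25.1 and 15.5 TPM in PF_L through 4.12, 4.21 and 12.2 TPM in PF_Z to 0.72, 0.96 and 1.01 TPM in PF_D, falling by 3.35 ± 0.36 (adjusted p = 7.59e-05). Its fall from PF_L to PF_Z alone (1.45 ± 0.36, adjusted p = 0.0337) was lost without any of 6 libraries, the 3 of PF_L, PF_Z replicates 1 and 2 and PF_D replicate 3 (adjusted p of 0.0515 to 0.118), under median-ratio scaling (0.051), with a replicate block (0.0502), in a fit of the 6 libraries compared (0.084) and at a pseudocount of 0.1 TPM (0.0525).

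**Figure D4:**
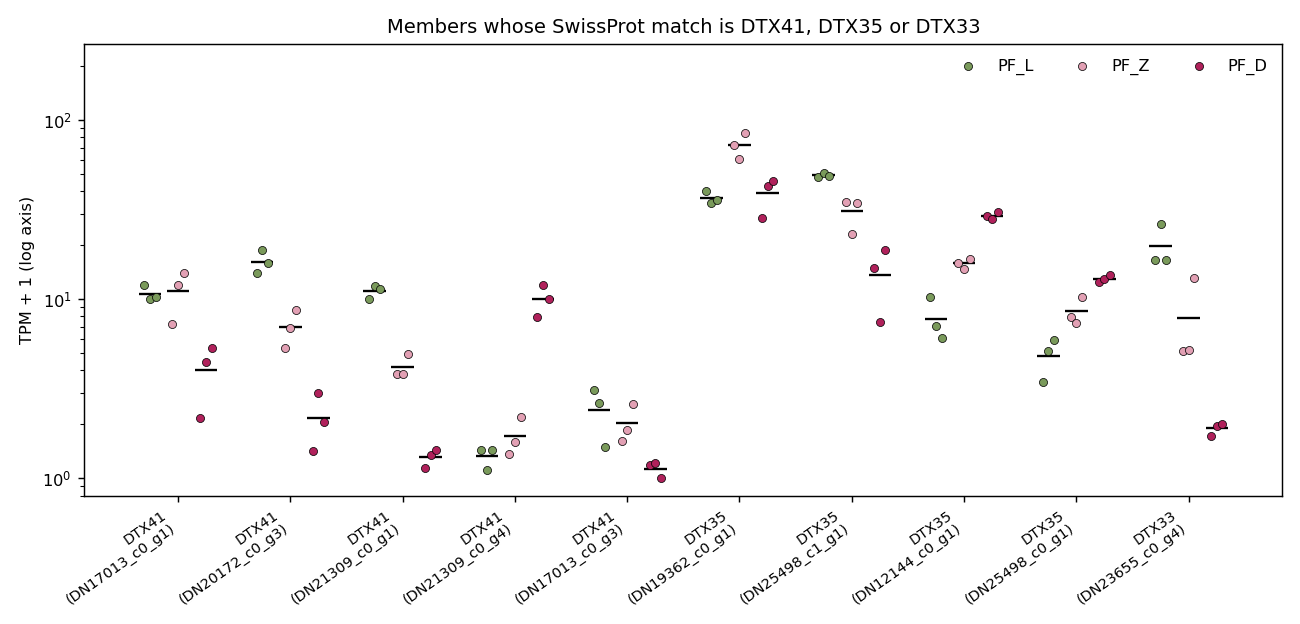
Points are single libraries of the 5 DTX41, 4 DTX35 and 1 DTX33 matches, coloured by stage, as TPM + 1 on a log axis, with bars at the mean of 3 libraries. Among the DTX41 matches only DN21309_c0_g4 is higher in PF_D (6.95 to 11.03 TPM) than in PF_L (0.11 to 0.44 TPM). It passed the abundance limit only with its PF_D libraries.

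Further falls in the group DTX27 to DTX41 were those of DTX40 and DTX31. DTX40 (DN20911_c0_g1) was at 21.2, 18.8 and 19.2 TPM in PF_L, 7.98, 10.1 and 10.4 TPM in PF_Z and 1.03, 0.26 and 3.28 TPM in PF_D, a fall of 3.22 ± 0.37 (adjusted p = 0.000109). Both DTX31 matches were fragments of the cluster that also holds DTX33. DN23655_c0_g2 was at 5.83 to 9.04 TPM in PF_L and 0.43 to 2.46 TPM in PF_Z. This fall of 1.89 ± 0.35 (adjusted p = 0.00978) was not called at a pseudocount of 0.1 or 5 TPM. DN23655_c0_g2 passed the abundance limit only with its PF_L libraries, so its calls against PF_L are no evidence of a difference. DN23655_c0_g1 was between 1.62 and 4.05 TPM in the young bud and listed at 0 elsewhere. It passed the abundance limit through PF_L alone, so its call is no evidence of a difference.

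The group DTX12 to DTX19, whose Arabidopsis member DTX18 exports hydroxycinnamic acid amides, had 14 members. Of these, 5 fell and 1 rose between PF_D and PF_L, where 15.7% of all tested unigenes fell and 9.38% rose. The falls include those of DTX16 DN17175_c1_g2 and DTX12 DN18367_c0_g2. Both passed the abundance limit only with their PF_L libraries, so their falls are no evidence of a difference. The rise was that of a DTX16 match, DN18489_c0_g1, at 4.74, 3.89 and 3.87 TPM in PF_L, 8.14, 8.66 and 8.69 TPM in PF_Z and 12.9, 16.4 and 14.6 TPM in PF_D, by 1.59 ± 0.17 (adjusted p = 6.62e-05). The libraries of the 3 stages did not overlap, though neither single step reached the limit. The most abundant of this group, another DTX16 match (DN17175_c1_g7), was at 17.96 to 24.4 TPM in PF_L, 9.80 to 31.2 TPM in PF_Z and 11.5 to 13.2 TPM in PF_D and was not called.

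The group DTX42 to DTX46 includes relatives of citrate exporters and of the chloroplast salicylate exporter EDS5, and 2 of its 13 members fell between PF_D and PF_L, a share close to the 15.7% of all tested unigenes that fell. Both matched DTX46 and fell in each step. DN26022_c0_g1 was at 31.0, 29.0 and 31.9 TPM in PF_L, 7.86, 10.6 and 16.7 TPM in PF_Z and 0.78, 2.41 and 2.03 TPM in PF_D and fell by 3.58 ± 0.30 (adjusted p = 1.52e-05). DN13012_c0_g1 was at 26.2, 27.4 and 28.3 TPM in PF_L, 11.2, 10.2 and 17.4 TPM in PF_Z and 2.11, 2.42 and 3.13 TPM in PF_D and fell by 3.003 ± 0.21 (adjusted p = 5.77e-06). Their falls from PF_L to PF_Z, 1.37 ± 0.30 (adjusted p = 0.0195) and 1.06 ± 0.21 (adjusted p = 0.0143), were lost in the first without any PF_L library, PF_Z replicate 1 or PF_Z replicate 2 (0.0581 to 0.0701) and in the second without PF_L replicate 2, PF_L replicate 3, PF_Z replicate 1 or PF_Z replicate 2 (0.0513 to 0.0609). The early fall of DN13012_c0_g1 was also short of the limit under median-ratio scaling (-0.83), quantile normalization (-0.92) and a pseudocount of 5 TPM (-0.87), and that of DN26022_c0_g1 was not called at a pseudocount of 0.1 TPM. The other 5 DTX46 matches were not called. Neither were DTX45, at 11.2 to 20.2 TPM, and both DTX44 matches, at 1.32 to 7.47 TPM. The 1 member called higher, a DTX42 fragment at 1.02 to 2.37 TPM in PF_D, passed the abundance limit through PF_D alone, so its call is no evidence of a difference.

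Of the 95 members, 51 were called in at least 1 comparison, where 31.2% of all tested unigenes were, and 9 in both successive steps, where 2.60% were. The 3 GST among the 9 were GSTF11 and tau DN13838_c1_g1, which rose in both steps, and GSTL2 DN13418_c0_g1, which fell in both. The 6 MATE were DTX55, which rose, and DTX33, DTX41 DN20172_c0_g3, DTX41 DN21309_c0_g1 and both DTX46 members, which fell. No member rose in one step and fell in the other. By mean level, 49 members peaked at PF_L, 18 at PF_Z and 28 at PF_D.

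**Figure D5:**
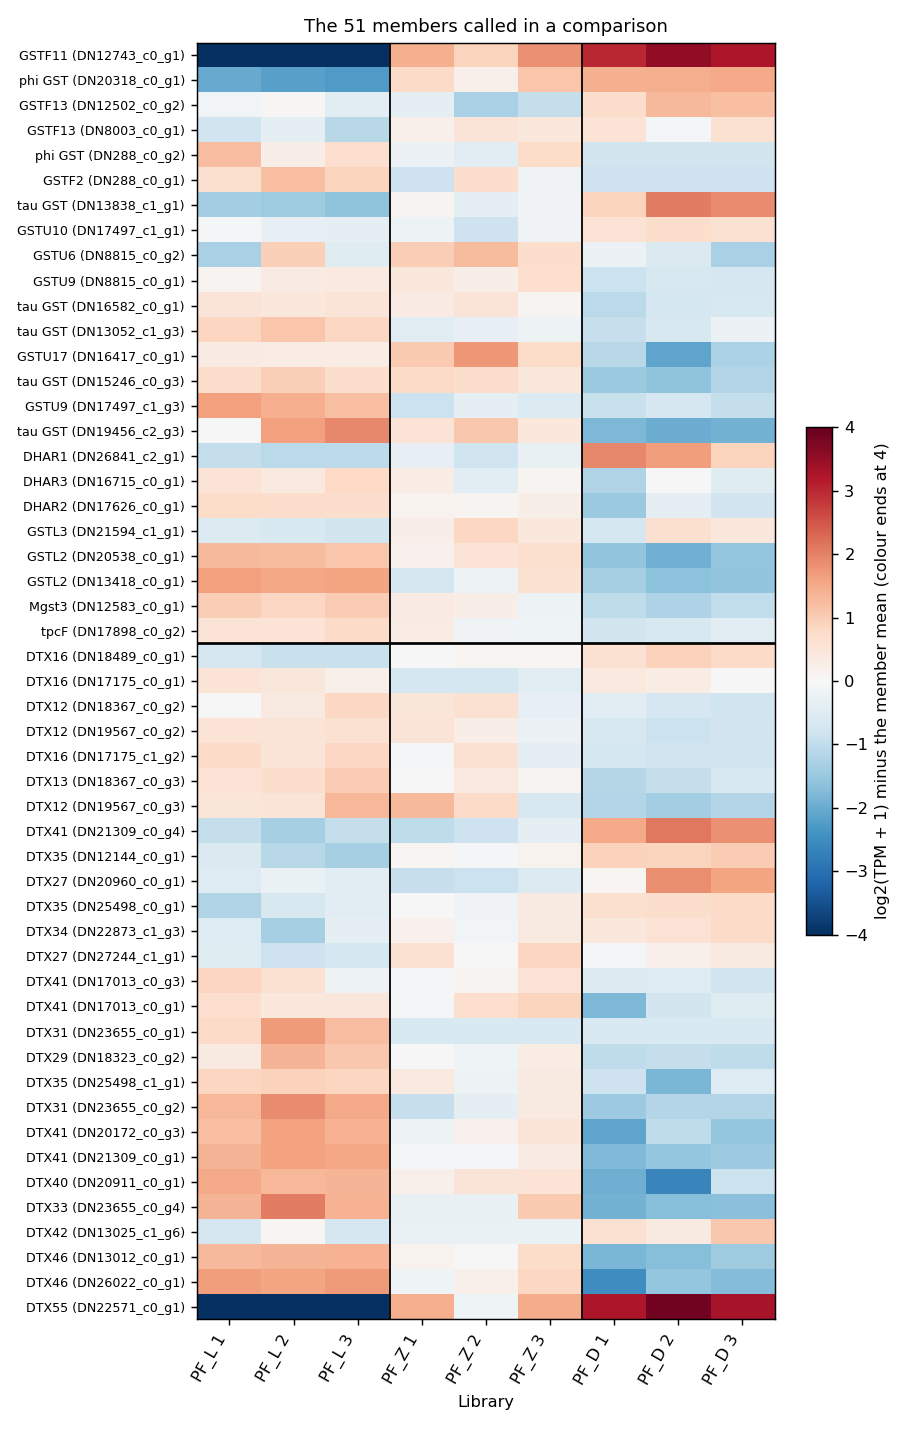
Each row is 1 of the 51 members called in a comparison, GST above the line and MATE below, and each column a library, with colour giving log2(TPM + 1) minus the mean of that member over 9 libraries. GSTF11 and DTX55 reach the end of the scale in PF_L, and members that are red in PF_L and blue in PF_D outnumber the reverse.

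Members that fell were accompanied by the fall of green tissue markers, of which 24 of 28 fell and none rose between PF_D and PF_L. Their sum varied inside stages too, from 5678 and 3666 TPM in PF_Z replicates 1 and 2 to 1558 TPM in PF_Z replicate 3. PF_D replicate 1 held the most of the PF_D libraries (1838 TPM) and the lowest summed GST (2106 TPM) and MATE (800.5 TPM) levels of that stage. The part of the green tissue markers in the falls of DHAR2, DHAR3, GSTL2, Mgst3 and DTX46 was not tested.

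Genes with roles on either side of the carriers were taken from lists of anthocyanin enzymes, ABC transporters, proton pumps and glutathione enzymes. Between PF_D and PF_L, 9.38% of all tested unigenes rose and 15.7% fell, and the lists are to be read against these shares. Of 27 unigenes of anthocyanin enzymes, 20 rose and 2 fell, and in the same comparison the leading unigene of anthocyanidin synthase (ANS, DN20632_c0_g1) rose by 7.78 ± 0.36 and that of dihydroflavonol reductase (DFR, DN14121_c0_g3) by 8.15 ± 0.47, beside 7.93 for GSTF11 and 7.86 for DTX55. The ANS unigene rose by 5.91 from PF_L to PF_Z and 1.87 from PF_Z to PF_D, and GSTF11 by 6.04 and 1.89. The DFR unigene rose by 5.755 and 2.397, and the leading anthocyanidin glucosyltransferase (BZ1) unigene by 4.26 and 2.76. The leading chalcone synthase and chalcone isomerase unigenes differed by 3.73 and 0.68 and by 2.42 and -0.51. The leading flavanone hydroxylase (F3H) and flavonoid hydroxylase (F3'H) unigenes differed by 3.175 and -0.48 and by 3.04 and -0.19. The second steps of these chalcone and hydroxylase unigenes were not called. Of 56 ABC class C unigenes, 19 rose and 4 fell, and the most abundant in PF_D was an ABCC10 match that rose (32.1 ± 4.67 TPM in the young bud, 117 ± 23.7 TPM in the big bud). Of 37 unigenes found by a search for vacuolar proton pumps, 3 rose and 1 fell. This search also took in 2 matches of ACA10, a calcium pump, neither of them called. Few single pump unigenes were called, but their median log2 difference between PF_D and PF_L was 0.50, against -0.12 for all tested unigenes. All 41 matches, tested or not, summed to 2054 ± 139 TPM in PF_L, 1956 ± 99.2 TPM in PF_Z and 2931 ± 82.7 TPM in PF_D. Of 7 unigenes of glutathione synthesis and reduction, none rose and 1 fell, and their sum was 244 ± 6.65 TPM in PF_L and 282 ± 45.5 TPM in PF_D. These comparisons share their libraries with those of the members. The counts of the lists also include unigenes that needed the libraries of 1 stage to pass the abundance limit. Examples are DFR DN14121_c0_g2 and ABC class C DN12152_c0_g2 for PF_D, and F3'H DN13016_c0_g4 and ABC class C DN16004_c0_g2 for PF_L. Their calls against that stage are no evidence of a difference.

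Just inside the abundance limit, 5 members reached 1 TPM in exactly 3 libraries, among them tau DN13052_c1_g3 and DTX31 DN23655_c0_g1, which did so in the PF_L libraries alone, and a DTX42 fragment, which did so in the PF_D libraries alone. Just outside were 5 matches with 1 or 2 such libraries, a tau GST, 2 DTX41, a DTX42 and a DTX12, none above 3.03 TPM in any library. Other members also needed the libraries of 1 stage to pass the limit. Examples are DTX41 DN21309_c0_g4 for PF_D and GSTU6 for PF_Z. For PF_L they are both DN288 fragments, GSTU9 DN17497_c1_g3, DTX31 DN23655_c0_g2, DTX29 DN18323_c0_g2, DTX16 DN17175_c1_g2 and DTX12 DN18367_c0_g2. Their calls involving that stage are no evidence of a difference, though the counts of called members include them. The members ranged in mean level from 0.721 to 545 TPM, 44 of them under 5 TPM, and 19 were shorter than 500 bp. Genome positions of the unigenes are not analysed here.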

How the data were processed

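The authors sequenced petal RNA of 3 stages with 3 biological replicates, assembled all reads de novo with Trinity and deposited TPM per unigene, with the unigene length and annotation. The program behind the TPM is not given in the sources used here. Beside this, the submitters' notes on processing name StringTie 1.3.0, HISAT2 2.0, Bowtie 0.12.2 and, with no role given, the genome build mm8. TPM summed to 993148 to 994911 per library and holds no counts, so depth is unknown and low values are the least precise.

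Members were matched by SwissProt description and grouped into classes by it. The members, classes and lists were chosen with earlier results of these data known. The test set was the 47924 unigenes that reached 1 TPM in 3 or more libraries. A linear model with a mean for each stage was fitted to log2(TPM + 1) in limma 3.58.1 (R 4.3.3), variances were moderated with an abundance trend, and p-values were adjusted after Benjamini-Hochberg over the whole test set. The study's own test needs read counts, which the TPM table does not hold. The fit was tested on simulated data. Named were, per family and comparison, the 5 strongest called rises and the 5 strongest called falls, the 6 with the highest mean per family, members called in both steps, the most abundant of each class, and matches of GSTF11, GSTF12, AN9, BZ2, DTX33, DTX35, DTX41 and DTX44. Others named were chosen after their values were seen. Plots were made in Python 3.11.15 (matplotlib 3.10.9). Alternatives were a pseudocount of 0.1 or 5 TPM, no filter, a filter of 5 TPM, median-ratio scaling, no variance trend, quantile normalization, a replicate block, a fit restricted to the 6 libraries of a comparison, members by Pfam domain, and leaving out each library.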

Additional observations from a re-analysis of the deposited data

How the results depend on the processing

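No call of a named member changed direction under an alternative. Of the members called, 5 of 19 between PF_Z and PF_L, 15 of 29 between PF_D and PF_Z and 28 of 45 between PF_D and PF_L were called under each of 18 alternatives, so the first comparison is the least certain. Members that the filter of 5 TPM left untested count here as not called. For named members such a setting was skipped, and 5 of 18, 15 of 24 and 26 of 34 calls held throughout. Of 76 calls of named members, 22 were lost at a pseudocount of 5 TPM, 7 at 0.1 TPM, 5 under median-ratio scaling, 4 under quantile normalization and 4 with a replicate block. The MATE count was most affected by the pseudocount, with 4, 7 and 14 called at 5 TPM in place of 11, 14 and 25 in the same order, while 29 of 57 MATE members had a mean under 5 TPM. Leaving out 1 library gave 4 to 8, 13 to 15 and 19 to 21 called GST and 5 to 11, 12 to 16 and 22 to 24 called MATE. Over all unigenes the calls between PF_Z and PF_L numbered 3280, of which 31.4% were rises, against 49.7% after median-ratio scaling and 50.5% after quantile normalization, which moved the median log2 difference from -0.21 to -0.03 and -0.02. At a pseudocount of 5 TPM, 1356, 3779 and 5384 unigenes were called in place of 3280, 8608 and 12042, and with a filter of 5 TPM 7478 of 23998 tested unigenes were called between PF_D and PF_L (31.2%), against 25.1% of those tested before. Leaving out 1 library gave 1742 to 4719 between PF_Z and PF_L, the lowest without PF_L replicate 3. A Pfam domain in place of the description took in 17 more GST and 3 more MATE and left out 3 of each.

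Replicate numbers did not pair the samples, since deviations of libraries with the same number correlated at -0.10 to 0.04. With a replicate block, 6, 15 and 20 GST and 9, 13 and 22 MATE members were called.

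With 3 libraries per stage and no counts, members at a few TPM cannot be resolved from counting error, and fragments of 1 gene cannot be told from its copies.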

Other observations

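Some members carried annotations that go against their family name, and their values are given without a test. Of 3 theta members, the GSTT3 match DN12726_c1_g3 held a Myb-like DNA-binding domain in the Pfam column and the GSTT3 match DN21312_c0_g1 no domain, and both stayed between 1.69 and 4.02 TPM. DHAR3 was assigned a KEGG number for aminoacyl-tRNA synthesis, and a DTX13 and a DTX14 member one for DNA replication and repair. By contrast, 35 of 38 GST members held a GST domain and 54 of 57 MATE members a MatE domain.

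Assembly clusters did not always move as a unit. In 2 clusters, members were called in opposite directions between PF_D and PF_L. Both lay in the group DTX27 to DTX41, the DTX41 pair of cluster DN21309 (-3.08 and 2.90 in log2) and the DTX35 pair of cluster DN25498 (-1.94 and 1.46). The rise in DN21309 is that of DN21309_c0_g4, which passed the abundance limit only with its PF_D libraries. That rise is no evidence of a difference. Whether the members of a pair are separate genes was not tested.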
